A study of Mus musculus with 32 samples.

Results

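The lysosomal genes described here are 35 mouse genes for the hydrolases, membrane proteins, proton pump subunits and regulators of the lysosome. They were chosen as highly expressed lysosome genes and taken by gene symbol from the 21899 genes of the deposited expression table. All 35 were found, each with a single row. The expression table's own pathway annotation places 32 of them in the lysosome pathway, the others being Atp6v1a, Tfeb and Grn. Gene expression had been measured by RNA sequencing of primary mouse astrocytes, the glial cells that support neurons, in 32 libraries. The groups were untreated cells (Control), cells given photobiomodulation, that is light (PBM), cells exposed to lipopolysaccharide (LPS, an endotoxin of Gram-negative bacteria that activates Toll-like receptor signalling), and cells given both (LPS+PBM). The 4 treatments at 2 times, 4 h and 24 h, make 8 groups, and each group has 4 libraries. Neither the mouse strain and age nor the doses of LPS and light are stated in the labels. Separate cultures are not named for replicate libraries, so p-values measure the spread between these libraries, which may be technical.

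Lysosomes are acidic organelles in which proteins, lipids, sugars and nucleic acids delivered by endocytosis, phagocytosis and autophagy are broken down. Their hydrolases are made in the endoplasmic reticulum, carried by mannose 6-phosphate receptors or sortilin, and work at the low pH kept by the vacuolar H+-ATPase. Transcription of many of these genes is driven by TFEB and related factors of the MiT/TFE family, which bind an E-box-containing motif called the CLEAR element. In glia, lysosomes digest engulfed material and process antigen, and several cathepsins are made in large amounts by microglia and macrophages.

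The values are FPKM, fragments scaled to transcript length and to the mapped fragments of the library. Depth was low: the steps of the FPKM values gave 130759 to 143845 fragments per library, so that 3 fragments in a transcript of 1 kb amount to 20.9 to 22.9 FPKM. Libraries were checked against markers of the labelled cell type. Astrocyte genes were present (Gfap at 39.5, Glul at 68.9, Gja1 at 50.8 and Clu at 53.7 FPKM on average). The rest of the astrocyte list lay lower, between 1.40 FPKM (S100b, at 0 in 24 libraries) and 26.7 FPKM (Aqp4). Some genes of fibroblasts and contractile cells were far higher, with Col1a2 at 729 and Acta2 at 943 FPKM. Col1a1, Col3a1, Dcn and Igfbp2 were high too (515, 376, 186 and 953 FPKM). Lum, Pdgfra and Ptgds of the fibroblast list were low (4.64, 3.18 and 0.874 FPKM). Of the mural genes Pdgfrb was at 52.4 and Rgs5 at 4.28 FPKM, and Kcnj8 was at 0 in all 32 libraries. Microglial and macrophage genes were present too (Csf1r at 46.2 and C1qb at 58.1 FPKM). Some others of that list were low, with Cx3cr1 at 3.95 and P2ry12 at 0.43 FPKM. Aif1 was at 4.26 FPKM (at 0 in 24 libraries) and Ly86 at 3.41 FPKM (at 0 in 19 libraries). The neuronal genes Rbfox3 and Snap25, the oligodendrocyte genes Mog and Mag, the endothelial gene Cldn5 and the microglial gene Siglech were at 0 in all 32 libraries. Other genes of the same lists were present, among them Stmn2 (38.0 FPKM), Map2 (17.4 FPKM) and Tubb3 (14.7 FPKM) of the neuronal list, Cspg4 (27.5 FPKM) of the oligodendrocyte lineage and Cdh5 (6.93 FPKM) of the endothelial one. In such bulk samples, a change in the number of cells of one type cannot be told apart from a change in RNA per cell.

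The 35 genes had been chosen as highly expressed lysosome genes, so their high level as a group follows from that choice and is given as description. FPKM is scaled to length, so levels can be set side by side between genes, but only approximately. The transcript lengths used are not stated, and the coding transcripts of Ctsl, for one, run from 582 to 6168 bases. Averaged over the 32 libraries, 15 of the 35 (42.9%) reached 100 FPKM, against 3.08% of all genes in the table. Of all those genes, 6787 were at 0 in every library. Among the 35, 18 lay between 10 and 100 FPKM, and 2 were lower. Ctsd, the aspartic protease cathepsin D, was at 1448 FPKM the highest of them and the 18th most abundant gene of the table, and made up 24.9% of the summed lysosomal FPKM. It was followed by Psap at 513 FPKM, the precursor of the saposins that help enzymes reach sphingolipids, then by Cd63 at 482 FPKM, a tetraspanin of late endosomes and lysosomes, Lamp1 at 453 FPKM, a major glycoprotein of the lysosomal membrane, and Ctsb at 412 FPKM, the cysteine protease cathepsin B. Together these 5 genes held 56.8% of the lysosomal total. The neighbours Psap, Cd63, Lamp1 and Ctsb overlapped in their ranges over the 32 libraries (385 to 699, 348 to 595, 339 to 531 and 291 to 564 FPKM), whereas Ctsd, at 1058 to 1953 FPKM, overlapped with none of them.

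**Figure D1:**
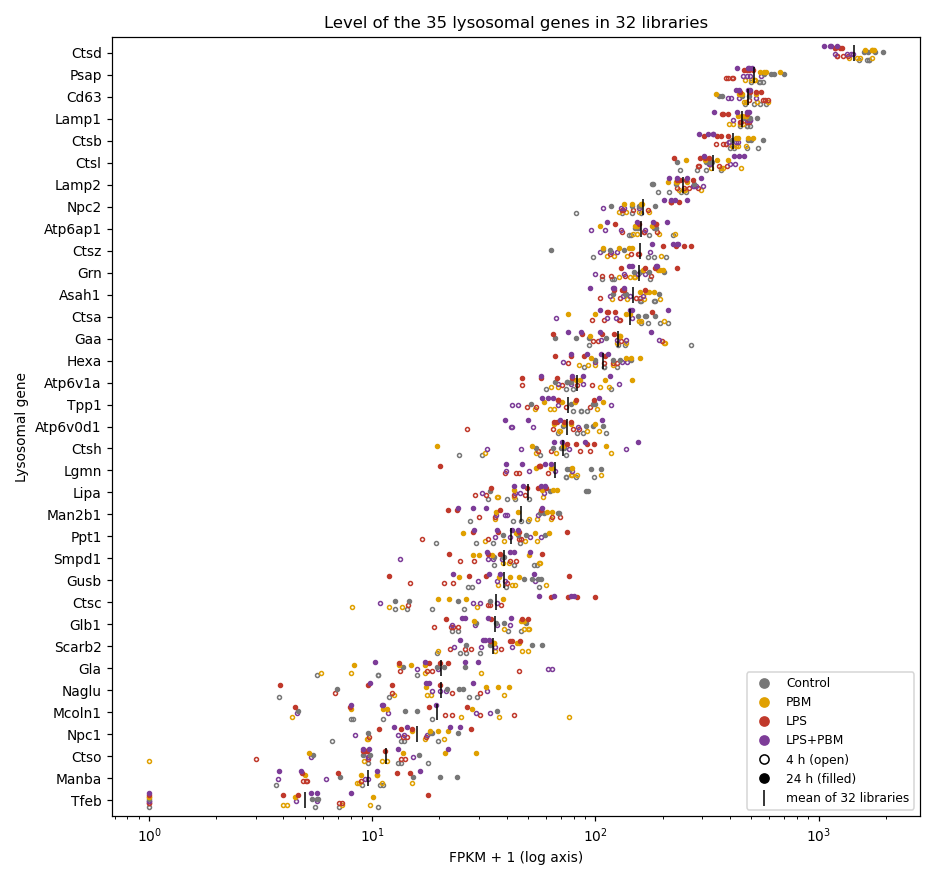
Level of each of the 35 lysosomal genes (rows, ordered by mean) in the 32 libraries, as FPKM + 1 on a log axis. Open points are 4 h libraries, filled points 24 h libraries, colours the treatments and vertical ticks the mean over 32 libraries. Ctsd stands apart at 1448 FPKM, and the 24 h LPS and LPS+PBM libraries of Ctsc lie to the right of all other libraries of that gene.

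Below the top 5 came the cysteine protease Ctsl (337 FPKM) and the membrane protein Lamp2 (246 FPKM), then 8 genes between 107 and 163 FPKM. These were Npc2, which binds cholesterol in the lysosome lumen, Atp6ap1, an accessory subunit of the proton pump, the carboxypeptidase Ctsz, the progranulin gene Grn, the acid ceramidase Asah1, the protective protein Ctsa, the acid alpha-glucosidase Gaa and Hexa, the alpha subunit of beta-hexosaminidase. Another 10 genes lay between 37.9 and 81.8 FPKM, namely the pump subunits Atp6v1a and Atp6v0d1, the peptidases Tpp1, Ctsh and Lgmn, the acid lipase Lipa, the mannosidase Man2b1, the thioesterase Ppt1, the sphingomyelinase Smpd1 and the beta-glucuronidase Gusb. The last 10 ranged from Ctsc, the dipeptidyl peptidase that activates other proteases, at 34.96 FPKM through Glb1, Scarb2, Gla, Naglu, Mcoln1, Npc1 and Ctso to Manba at 8.60 and Tfeb at 4.00 FPKM. Tfeb, the transcription factor itself, was listed at 0 in 10 libraries and Ctso in 1. The other 33 genes were above 0 in every library, and all 35 passed the filter on low values.

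Lysosomal genes were called under LPS and not under light. At 24 h, LPS against Control gave 6 called genes of 35 at a limma adjusted p under 0.05, against 2.56% of all 13278 genes tested. Ctsc, Ctsz and Npc2 rose, and Ctsd, Ctsb and Psap fell. At 4 h only Ctsd and Psap were called, both lower, against 2.23% of 13247 genes. The voom fit called 6 members at 24 h and 3 at 4 h. In the light-treated cells, LPS+PBM against PBM gave 4 called genes at 24 h (background 2.70%; 6 by voom), Ctsc and Npc2 higher and Ctsd and Ctsb lower, and 0 at 4 h, also by voom (background 2.63%; 6 of the 35 had an unadjusted p under 0.05, against 14.2% of all genes). The groups with and without LPS did not overlap for 7 and 8 of the 35 genes against Control (4 h and 24 h) and for 2 and 8 against PBM, where all genes tested gave 7.28%, 7.94%, 8.25% and 8.01%. Call shares were higher among genes averaging at least 10 FPKM, as 33 of the 35 did. They were 3.83% and 4.11% against Control (4 h and 24 h) and 4.43% and 4.49% against PBM. The 2 LPS comparisons of a time share no library, but each time's 4 groups share an estimate of the spread. With any 1 library left out, LPS against Control at 24 h gave 3 calls (without Control replicate 3 or LPS replicate 1, 3 or 4) or 4. At 4 h it gave 1 without Control replicate 1 or 3 or LPS replicate 1 or 2, and LPS+PBM against PBM at 24 h gave 2 without PBM replicate 1, 2 or 3 or LPS+PBM replicate 2 or 4. The median of the 35 lay near that of all genes: their median difference was -0.14 on the log2(FPKM + 1) scale at 4 h and -0.09 at 24 h, beside -0.07 and -0.05 over all genes tested.

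**Figure D2:**
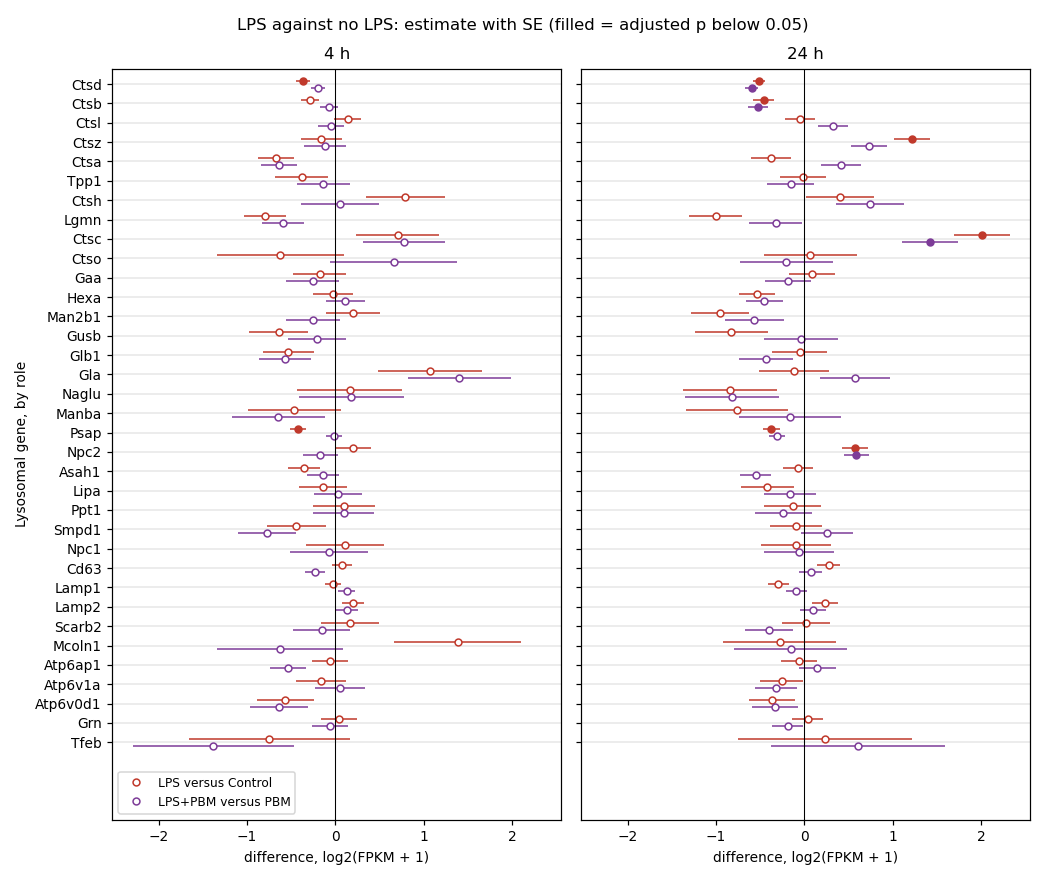
Difference between libraries with and without LPS for the 35 lysosomal genes at 4 h (left) and 24 h (right), in log2(FPKM + 1), with the SE as a horizontal bar. Red is LPS versus Control and purple LPS+PBM versus PBM, and filled points have an adjusted p below 0.05. The filled points at 24 h are Ctsd, Ctsb, Psap and, on the other side of 0, Ctsz, Ctsc and Npc2.

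Among the 10 proteases, the abundant cathepsins D and B fell while C and Z rose. Ctsd (ENSMUSG00000007891, GRCm38 chromosome 7, 142375911 to 142388038, minus strand) stood at 1789, 1673, 1953 and 1596 FPKM in the 24 h Control libraries, and its values under LPS were 1190, 1252, 1181 and 1272 FPKM. The highest LPS library lay below the lowest Control library. The difference was -0.51 ± 0.07 (log2, SE, adjusted p = 0.000149). In the light-treated cells Ctsd stood at 1735, 1771, 1732 and 1617 FPKM without LPS and at 1139, 1124, 1211 and 1058 FPKM with LPS, again without overlap, a difference of -0.60 ± 0.07 (adjusted p = 1.95e-05). Approximately 1912 Ctsd fragments stood behind the 4 Control libraries of 24 h and 1373 behind the 4 LPS libraries, so counting error was small for this gene.

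At 4 h Ctsd was at 1674, 1516, 1688 and 1650 FPKM without treatment, and LPS libraries held 1213, 1206, 1357 and 1281 FPKM, a difference of -0.37 ± 0.08 (adjusted p = 0.0158) with no overlap. That call ended without Control replicate 1 (adjusted p = 0.0514), Control replicate 3 (0.0545), LPS replicate 1 (0.0537) or LPS replicate 2 (0.0552), with the difference between -0.36 and -0.35, and with quantile normalization (-0.31, adjusted p = 0.0600). In light-treated cells at 4 h the difference was -0.19 ± 0.08 (adjusted p = 0.273) and the groups overlapped, 1366 to 1740 against 1180 to 1432 FPKM. Both 24 h calls held under each alternative tried, with adjusted p-values up to 0.00709. An exon of Ctsd overlaps the predicted gene Gm49369 on the same strand, and how shared fragments were assigned is not stated in the labels.

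Ctsb (ENSMUSG00000021939, chromosome 14, 63122462 to 63145923, plus strand) stood at 496, 483, 564 and 409 FPKM in the 24 h Control libraries. Its LPS values were 350.4, 393, 306 and 366 FPKM. The groups did not overlap, and the difference was -0.46 ± 0.12 (adjusted p = 0.0374). Between PBM and LPS+PBM at 24 h it went from 463 ± 40.7 to 320.3 ± 21.0 FPKM (SD, n = 4), a difference of -0.53 ± 0.12 (adjusted p = 0.0137). At 4 h the differences were -0.29 ± 0.11 and -0.07 ± 0.11, and neither passed (adjusted p = 0.222 and 0.797). The call against Control ended when any of 6 single libraries was left out (Control replicates 1, 2 and 3, LPS replicates 1, 3 and 4), with adjusted p between 0.0666 and 0.131. The call in light-treated cells ended without PBM replicate 1 (adjusted p = 0.0552) or LPS+PBM replicate 4 (0.0506). Ctsb shares exon sequence with Fdft1 on the opposite strand, and no label says whether strand was used in counting.

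Ctsc (ENSMUSG00000030560, chromosome 7, 88278085 to 88310888, plus strand) made the largest rise of the 35. At 24 h it stood at 13.6, 23.3, 32.7 and 11.6 FPKM in Control, whereas LPS libraries reached 62.2, 99.0, 74.1 and 82.1 FPKM. The lowest LPS library was above the highest Control library, and the difference was 2.01 ± 0.32 (adjusted p = 0.000753). In light-treated cells it went from 25.2, 21.0, 18.7 and 37.7 FPKM to 63.9, 76.7, 79.2 and 54.9 FPKM, a difference of 1.42 ± 0.32 (adjusted p = 0.0156), also without overlap. Without PBM replicate 2 or 3, or LPS+PBM replicate 2 or 3, the latter's adjusted p was 0.0523 to 0.0541. Few fragments lie behind the unstimulated values, about 24 over the 4 Control libraries of 24 h and 96 over the 4 LPS libraries, taking the mean length of its transcripts. At 4 h the differences were 0.71 ± 0.47 and 0.78 ± 0.47 and did not pass (adjusted p = 0.612 and 0.479).

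Ctsz (ENSMUSG00000016256, chromosome 2, 174427493 to 174439039, minus strand) stood at 116, 107, 62.4 and 133 FPKM in Control libraries of 24 h, and the LPS libraries had 229, 200.3, 249.7 and 268 FPKM. The groups did not overlap, and the difference of 1.22 ± 0.20 (adjusted p = 0.0011) held under each alternative tried. Between PBM and LPS+PBM the difference was 0.73 ± 0.20, which did not pass (adjusted p = 0.0578), although the groups, at 107 to 146 and 178 to 233 FPKM, did not overlap either. The LPS effect in Control cells and in light-treated cells at 24 h was not shown to differ for Ctsz (interaction -0.49 ± 0.28, adjusted p = 0.912). At 4 h Ctsz stood at 96.9 to 207 FPKM in Control, and LPS libraries lay at 116 to 156 FPKM (difference -0.16 ± 0.23, adjusted p = 0.856).

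Ctsz was also the one lysosomal gene whose LPS effect against Control differed between the times. The effect at 24 h minus that at 4 h was 1.38 ± 0.31 (limma on all 32 libraries, adjusted p = 0.0281, background 0.617% of 13937 genes). Part of that difference lies in the Control libraries, which averaged 164 FPKM at 4 h and 104 FPKM at 24 h (24 h against 4 h, -0.65 ± 0.22, adjusted p = 0.230). The call ended when any of 7 single libraries was left out, with adjusted p between 0.0612 and 0.0888: Control 4 h replicates 1, 2 and 3, LPS 4 h replicate 2, Control 24 h replicate 3, and LPS 24 h replicates 3 and 4. It also ended with other libraries in the fit (0.102). Ctsz overlaps Nelfcd on the opposite strand.

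**Figure D3:**
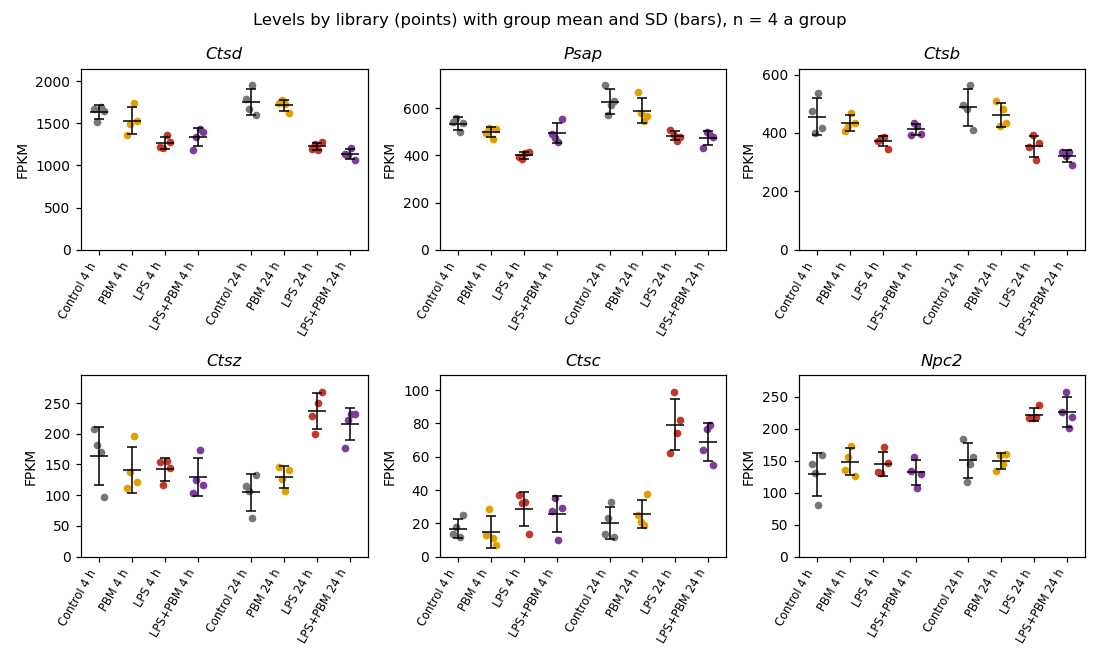
FPKM by library (points) in the 8 groups for the 6 lysosomal genes called in any comparison, with group mean and SD (black bars, n = 4), each axis starting at 0. Ctsd, Psap and Ctsb are lower in the 24 h LPS libraries than in Control, and Ctsz, Ctsc and Npc2 are higher.

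The other 6 proteases passed no test. Nearest was Lgmn, the asparagine endopeptidase legumain, whose mean was 81.0 FPKM in Control against 46.6 FPKM under LPS at 4 h (difference -0.79 ± 0.23, adjusted p = 0.0975) and 87.2 against 46.3 FPKM at 24 h (difference -1.004 ± 0.30, adjusted p = 0.0994), both without overlap. In light-treated cells its differences were -0.59 ± 0.23 and -0.33 ± 0.30, with overlap. Ctsa stood at 183 against 115 FPKM at 4 h (difference -0.67 ± 0.21, adjusted p = 0.119). Ctsl, Ctsh, Tpp1 and Ctso had differences with LPS between -0.62 and 0.79 at 4 h and between -0.20 and 0.75 at 24 h over both comparisons, none of them called.

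In the lipid-handling set of 7, Psap fell and Npc2 rose. Psap (ENSMUSG00000004207, chromosome 10, 60277627 to 60302597, plus strand) stood at 544, 561, 498 and 538 FPKM in Control libraries of 4 h, and the LPS libraries held 393, 385, 409 and 414 FPKM. The groups were well apart, with a difference of -0.42 ± 0.09 (adjusted p = 0.0132) that was called without each single library in turn. At 24 h it stood at 699, 570.4, 613 and 633 FPKM in Control, and LPS libraries held 509, 488, 463 and 477 FPKM, a difference of -0.37 ± 0.09 (adjusted p = 0.0354). That call ended when any of 7 single libraries was left out (Control replicates 1, 3 and 4 and each LPS library), with adjusted p between 0.0552 and 0.127. In light-treated cells Psap differed by -0.02 ± 0.09 at 4 h (adjusted p = 0.978) and by -0.31 ± 0.09 at 24 h (adjusted p = 0.0902).

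Npc2 (ENSMUSG00000021242, chromosome 12, 84754562 to 84773152, minus strand) stood at 184, 117, 145 and 155 FPKM in Control at 24 h, and its LPS values were 217, 217, 218 and 237 FPKM. The lowest LPS library was above the highest Control library, and the difference was 0.58 ± 0.15 (adjusted p = 0.0384). In light-treated cells it went from 134, 159, 144 and 161 FPKM to 226, 257, 201 and 218 FPKM, a difference of 0.59 ± 0.15 (adjusted p = 0.0315). The first call ended when any of 7 single libraries was left out (Control replicates 2, 3 and 4 and each LPS library, adjusted p between 0.0683 and 0.130). The second ended without PBM replicates 1, 2 or 3 or LPS+PBM replicates 1, 2 or 4 (0.0541 to 0.110). Quantile normalization ended both (0.122 and 0.115), and other libraries in the fit ended the first (0.0570). Asah1, at 170.2 and 117 FPKM in PBM and LPS+PBM at 24 h, did not pass (difference -0.55 ± 0.17, adjusted p = 0.107). Npc1, the membrane partner of Npc2 in cholesterol export, had group means between 12.2 and 17.7 FPKM. Lipa, Ppt1 and Smpd1 had no call.

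None of the 8 glycosidases, the enzymes that trim sugars from glycoproteins, glycolipids and glycosaminoglycans, was called under LPS. At 24 h 7 of the 8 had a difference below 0 against Control, with a median of -0.65, and 7 of the 8 between PBM and LPS+PBM, with a median of -0.31. Over all genes tested 53.3% and 54.8% were below 0, and the medians were -0.05 and -0.08. Man2b1 came nearest, with means of 62.0 ± 6.10 FPKM (Control) and 33.99 ± 16.1 FPKM (LPS) (difference -0.95 ± 0.33, adjusted p = 0.172). The summed level of the 8 ran from 378 to 447 FPKM in the 24 h Control libraries and from 288 to 344 FPKM in the LPS libraries. Between PBM (395 to 451 FPKM) and LPS+PBM (295 to 464 FPKM) the sums overlapped. At 4 h the signs were mixed, and Gla, the alpha-galactosidase, had the largest differences, 1.07 ± 0.59 and 1.41 ± 0.59 (adjusted p = 0.504 and 0.269).

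The 5 membrane proteins, the 3 proton pump subunits and both regulators had no call under LPS. Lamp1 averaged 473 ± 20.9 FPKM (Control) against 465 ± 22.9 FPKM (LPS) at 4 h, and 493 ± 30.0 and 403 ± 51.2 FPKM at 24 h (difference -0.30 ± 0.12, adjusted p = 0.260). Cd63 stood at 416 ± 63.7 and 502 ± 46.0 FPKM at 24 h (difference 0.28 ± 0.13, adjusted p = 0.366) and Lamp2 at 215 and 249.99 FPKM (difference 0.24 ± 0.15, adjusted p = 0.558). Mcoln1, the calcium channel TRPML1, had its values at 10.5 and 28.4 FPKM in Control and LPS at 4 h without overlap, yet with an SE of 0.72 on a difference of 1.38 (adjusted p = 0.474). Scarb2, the receptor that carries beta-glucocerebrosidase, differed by 0.02 ± 0.27 at 24 h. Atp6ap1, Atp6v1a and Atp6v0d1 differed by -0.06 ± 0.21, -0.26 ± 0.24 and -0.37 ± 0.26 at 24 h. Grn was at 170.1 and 178 FPKM. Tfeb rested on few fragments, about 2 over the 4 Control libraries, so its lack of a call says little at this depth.

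The promoter windows of the called genes were read to see whether they share the CLEAR element, because Ctsd and Psap fell together and Ctsc and Ctsz rose together. RefSeq windows on GRCm38.p6, running from 250 bases before to 50 bases after the annotated gene start, were at hand for 31 of the 35 genes, and Asah1, Ctsb, Ctsh and Npc1 had none. The motifs searched were CACGTG, the E-box core, TCACGTGA, the core with the CLEAR flanks, which contains it, TTCNNNGAA, the STAT-type palindrome, and a kappaB-type motif, each on both strands. TCACGTGA was found in 6 of the 31 genes (19.4%) and in 1.12% of all 27025 genes with a window, and CACGTG in 12 of 31 (38.7%) and 8.09%. The kappaB-type motif was found in 12 of 31 (38.7%), against 22.9%, and TTCNNNGAA in 1 of 31 (3.23%), against 9.55%. Of the 5 called genes with a window, only Ctsd held CACGTG. Npc2, which also rose, held none of the motifs searched, and its window is not shown. The windows below are written 5' to 3' along the gene's strand, in lower case with every match in capitals. Those of Ctsd (chr7:142387778-142388077, minus strand), Psap (first of its annotated starts, chr10:60277378-60277677, plus strand), Ctsc (chr7:88277835-88278134, plus strand), Ctsz (chr2:174438990-174439289, minus strand) and Lamp1 (chr8:13158911-13159210, plus strand) are shown since these genes fell, rose or, for Lamp1, were abundant without a call.
Ctsd: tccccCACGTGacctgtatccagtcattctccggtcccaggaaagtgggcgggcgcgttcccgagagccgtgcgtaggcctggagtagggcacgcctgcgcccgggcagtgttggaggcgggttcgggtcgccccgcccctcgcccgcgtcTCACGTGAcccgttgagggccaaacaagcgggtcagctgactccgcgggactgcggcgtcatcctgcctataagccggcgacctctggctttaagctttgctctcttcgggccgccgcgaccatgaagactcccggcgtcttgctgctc
Psap: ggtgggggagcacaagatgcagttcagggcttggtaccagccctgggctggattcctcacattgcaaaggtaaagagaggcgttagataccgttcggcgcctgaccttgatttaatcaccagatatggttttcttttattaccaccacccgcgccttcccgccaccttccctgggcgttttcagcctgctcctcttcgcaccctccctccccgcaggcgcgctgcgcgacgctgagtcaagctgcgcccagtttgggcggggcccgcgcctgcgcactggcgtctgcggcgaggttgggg
Ctsc: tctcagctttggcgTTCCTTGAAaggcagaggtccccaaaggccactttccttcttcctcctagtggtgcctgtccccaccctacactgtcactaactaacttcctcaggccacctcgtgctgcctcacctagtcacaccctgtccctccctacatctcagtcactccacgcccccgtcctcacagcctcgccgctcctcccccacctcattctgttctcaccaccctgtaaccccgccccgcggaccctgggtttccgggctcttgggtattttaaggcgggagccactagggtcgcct
Ctsz: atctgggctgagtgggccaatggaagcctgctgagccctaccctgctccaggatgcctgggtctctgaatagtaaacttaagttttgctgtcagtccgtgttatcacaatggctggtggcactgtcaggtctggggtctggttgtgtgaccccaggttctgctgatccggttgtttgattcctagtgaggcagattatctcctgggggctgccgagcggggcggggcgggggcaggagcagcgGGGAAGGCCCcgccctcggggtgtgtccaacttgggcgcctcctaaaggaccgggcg
Lamp1: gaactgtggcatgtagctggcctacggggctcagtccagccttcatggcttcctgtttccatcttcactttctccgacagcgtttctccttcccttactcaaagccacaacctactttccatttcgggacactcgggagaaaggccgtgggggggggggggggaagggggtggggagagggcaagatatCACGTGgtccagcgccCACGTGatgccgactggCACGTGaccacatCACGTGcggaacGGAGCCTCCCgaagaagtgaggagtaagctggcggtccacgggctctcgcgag

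Distances are counted from the RefSeq start, which for Ctsd (142387827) lies 211 bases downstream of the GENCODE gene start given above, and for Psap 1 base. In the Ctsd window one CACGTG starts 245 bases before the RefSeq start and the other, within TCACGTGA, 98 bases before, which is inside the GENCODE gene. The Lamp1 window holds 4 CACGTG matches and a kappaB-type one, that of Ctsc holds TTCNNNGAA 236 bases before the start, that of Ctsz holds a kappaB-type match 7 bases before the start, and the shown Psap window holds no match. A second Psap window (chr10:60284211-60284510), of a start 6834 bases downstream of the GENCODE gene start, holds a kappaB-type match 131 bases before that start. The other 5 genes with TCACGTGA were Ctsa, Gla, Mcoln1, Atp6v0d1 and Atp6v1a, none of which was called in any comparison. Their matches are given with 12 bases on each side, also on GRCm38.p6.
Ctsa, chr2:164833748-164833779, plus strand: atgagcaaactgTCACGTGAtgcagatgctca
Ctsa, chr2:164833765-164833796, plus strand: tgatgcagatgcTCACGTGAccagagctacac
Gla, chrX:134601214-134601245, minus strand: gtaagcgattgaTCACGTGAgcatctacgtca
Gla, chrX:134601181-134601212, minus strand: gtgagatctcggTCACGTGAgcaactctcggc
Mcoln1, chr8:3500461-3500492, plus strand: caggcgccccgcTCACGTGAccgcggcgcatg
Atp6v0d1, chr8:105566049-105566080, minus strand: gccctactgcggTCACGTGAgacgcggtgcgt
Atp6v1a, chr16:44139372-44139403, minus strand: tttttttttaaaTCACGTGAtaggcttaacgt
A match in a window is a description of its letters, not a bound site, and no binding was measured here.

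Light gave no call among the 35 genes. PBM against Control had 0 called genes at 4 h (background 0.0453%) and 0 at 24 h (background 0.113%), and LPS+PBM against LPS had 0 at 4 h (background 0.00%) and 0 at 24 h (background 0.00753%), by limma. The number of lysosomal genes with an unadjusted p under 0.05 was 1, 1, 3 and 1 of 35 in that order, where all genes tested gave 5.28%, 5.95%, 7.53% and 5.14%. In these light comparisons the voom fit on approximate fragments called 0 as well. Members' median differences were 0.08, -0.03, 0.04 and 0.02.

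How closely the light effect was bounded differed between genes. For Ctsd the difference between LPS+PBM and LPS was 0.08 ± 0.08 at 4 h and -0.11 ± 0.07 at 24 h (95% interval -0.26 to 0.03). Its difference between PBM and Control was -0.10 ± 0.08 and -0.03 ± 0.07. Intervals within 0.5 of 0 on the log2 scale were obtained for 6 and 8 genes in PBM against Control and for 9 and 9 genes in LPS+PBM against LPS, at 4 h and 24 h. Ctsb, Ctsd, Psap, Lamp1 and Lamp2 were among them in all 4 comparisons. Within 1 of 0 lay 22, 21, 23 and 27 of the 35 intervals.

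The smallest unadjusted p-values are given for what they are, none passing. Psap at 4 h stood at 393, 385, 409 and 414 FPKM with LPS and at 490, 476, 458 and 554 FPKM with LPS+PBM. The groups did not overlap, and LPS+PBM lay near PBM alone, at 497, 516, 469 and 514 FPKM. The difference was 0.30 ± 0.09 (adjusted p = 0.414), and the interaction of LPS and light for Psap at 4 h was 0.40 ± 0.13 (adjusted p = 0.538). Cd63 stood at 554 ± 47.1 FPKM with LPS and 439 ± 58.9 FPKM with LPS+PBM at 4 h (difference -0.34 ± 0.12, adjusted p = 0.494), and Gusb at 23.7 and 38.7 FPKM (0.75 ± 0.33, adjusted p = 0.613). Ctsl stood at 288 ± 43.6 FPKM with LPS and 407 ± 70.0 FPKM with LPS+PBM at 24 h (0.49 ± 0.17, adjusted p = 0.964), and at 301 and 379 FPKM in Control and PBM at 4 h (0.34 ± 0.15, adjusted p = 0.889). Ctsa averaged 168 ± 12.3 FPKM (Control) against 113 ± 32.0 FPKM (PBM) at 24 h (-0.61 ± 0.23, adjusted p = 0.690).

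**Figure D4:**
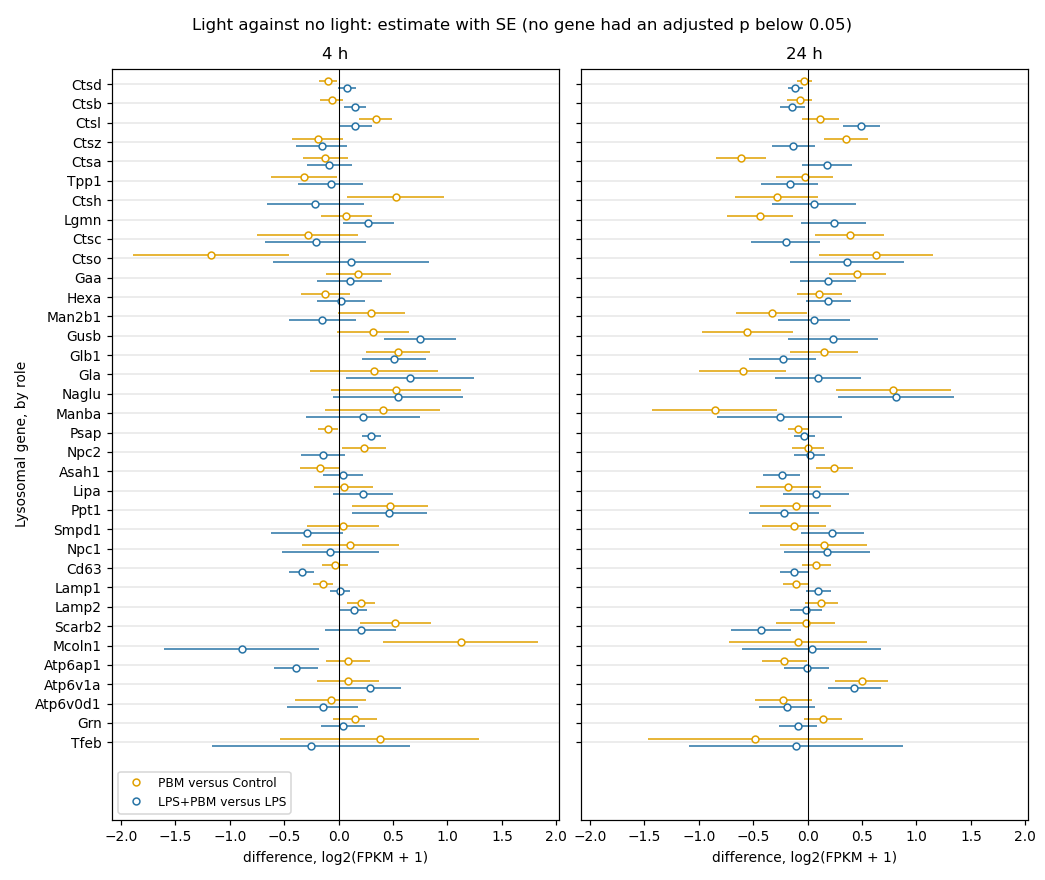
Difference between libraries with and without light for the 35 lysosomal genes at 4 h (left) and 24 h (right), in log2(FPKM + 1), with the SE as a horizontal bar. Yellow is PBM versus Control and blue LPS+PBM versus LPS, and open points mark that none of the 35 had an adjusted p below 0.05. Bars are short for the abundant Ctsd, Psap and Lamp1 and long for Mcoln1, Ctso and Tfeb.

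The interaction of LPS and light had 0 called lysosomal genes by limma at 4 h (background 0.0302%) and at 24 h (background 0.0527%), and 0 by voom. At an unadjusted p under 0.05 there was 1 of 35 at each time, against 6.45% and 5.29% of all genes. At 24 h the smallest p was that of Ctsa, 0.79 ± 0.33 (adjusted p = 0.904), followed by Asah1 at -0.48 ± 0.24 and Ctsz at -0.49 ± 0.28 (both adjusted p = 0.912).

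Between 4 h and 24 h calls were made in 1 of the 4 treatments, and whether the treatments differed in these time effects was tested only for LPS against Control, above. LPS+PBM libraries had 3 calls of 35 at 24 h against 4 h (background 3.01%, and 5.18% among genes averaging at least 10 FPKM). Npc2 rose from 132 ± 19.7 to 226 ± 23.6 FPKM (0.78 ± 0.17, adjusted p = 0.00551), Ctsc rose from 25.4 ± 10.9 to 68.7 ± 11.4 FPKM (1.52 ± 0.40, adjusted p = 0.0292) and Ctsb fell from 412 ± 19.3 to 320.3 ± 21.0 FPKM (-0.36 ± 0.10, adjusted p = 0.0487). The Npc2 call held in each alternative tried. Ctsc lost it without LPS+PBM 4 h replicate 3 (adjusted p = 0.144) or 24 h replicate 1 (0.0599), 2 (0.0790) or 3 (0.0812), and Ctsb without any one of the 8 libraries (0.0660 to 0.155). Other libraries in the fit ended both (0.0538 for Ctsc and 0.148 for Ctsb), and quantile normalization (0.0787) and library quality weights (0.0540) ended that of Ctsb. In LPS libraries 2 of these genes had close values without passing: Ctsc 1.505 ± 0.40 (adjusted p = 0.0526) and Npc2 0.62 ± 0.17 (0.0647). Ctsb changed less in LPS libraries, from 371 FPKM at 4 h to 354 FPKM at 24 h. Of the 35, 0 were called there by limma (background 1.33%), 1 with library quality weights and 3 by voom, and 7 had an unadjusted p under 0.05 (11.6% of all genes).

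Control and PBM libraries had 0 limma calls among the 35 between the times (background 1.11% and 1.05%) and 0 by voom. At an unadjusted p under 0.05 there were 7 and 6 of them, against 9.66% and 9.44% of all genes. Nearest were Ctsz in Control, Psap at 535 and 629 FPKM in Control (0.23 ± 0.08, adjusted p = 0.267), Cd63 at 525 and 416 FPKM in Control (-0.34 ± 0.12, adjusted p = 0.267), Psap in PBM (0.24 ± 0.08, adjusted p = 0.228) and Ctsa in PBM (-0.61 ± 0.22, adjusted p = 0.282).

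The summed level of the 35 genes separated libraries with and without LPS, and this is given as a description with no test. It ran from 5885 to 6572 FPKM in the 16 libraries without LPS and from 5186 to 5810.4 FPKM in the 16 libraries with LPS. Group means with LPS were 5389 ± 205 FPKM at 4 h and 5530 ± 140.4 FPKM at 24 h, against 6078 ± 121 and 6269 ± 272 FPKM in Control. Ctsd carried much of that gap. Without it the sums were 4329 to 4783 FPKM and 3972 to 4469 FPKM, and they overlapped. Over the 29 genes called in no comparison they were 2994 to 3451 FPKM and 2790.3 to 3245 FPKM.

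**Figure D5:**
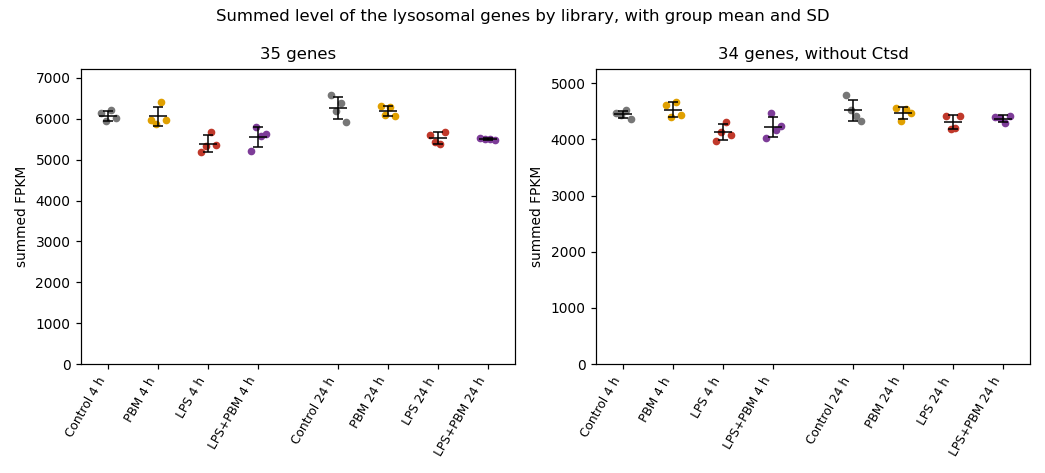
Summed FPKM of the lysosomal genes by library (points) in the 8 groups, with group mean and SD (black bars, n = 4), for all 35 genes (left) and without Ctsd (right), each axis starting at 0. With all 35 genes the libraries with LPS lie at or below 5810.4 FPKM and those without at or above 5885 FPKM.

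Lists of further lysosomal, sorting and autophagy genes were read beside the shares called over all genes against Control, 2.23% at 4 h and 2.56% at 24 h. Of 49 other lysosome genes, LPS against Control at 4 h called 2 higher, Litaf (22.3 to 74.6 FPKM, 1.75 ± 0.31, adjusted p = 0.00218) and the iron transporter Slc11a2 (12.3 to 63.8 FPKM, 2.40 ± 0.61, adjusted p = 0.0415), a share of 4.08%. At 24 h 1 of 48 tested (2.08%) was called, Tmem106b, lower (100.0 to 39.7 FPKM, -1.25 ± 0.28, adjusted p = 0.0170). Tmem106b went the other way in light-treated cells at 24 h, at 37.5 FPKM in PBM and 59.2 FPKM in LPS+PBM, without a call. Between PBM and LPS+PBM, Litaf rose at 4 h and at 24 h (2.07 ± 0.46, adjusted p = 0.0149), and the serine carboxypeptidase Scpep1 fell at 24 h (337 to 201 FPKM, -0.75 ± 0.14, adjusted p = 0.00459). Slc11a2 stood at 17.5 FPKM in PBM and 57.0 FPKM in LPS+PBM at 4 h, without a call.

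Of 14 other proton pump subunits, Atp6v0c rose with LPS against Control at 24 h (197 to 288 FPKM, 0.54 ± 0.14, adjusted p = 0.0457) and the other 13 were not called. In light-treated cells Atp6v0c did not rise at 24 h, at 243 FPKM in PBM and 225 FPKM in LPS+PBM, without a call. Of 18 sorting genes, Lamtor1, a Ragulator subunit that anchors mTORC1 to the lysosome, fell with LPS at 4 h (74.7 to 33.99 FPKM, -1.09 ± 0.27, adjusted p = 0.0373). In light-treated cells Lamtor1 was not called. It stood at 51.7 FPKM in PBM and 36.1 FPKM in LPS+PBM at 4 h, and at 37.5 and 48.5 FPKM at 24 h. Of 26 autophagy genes, Sqstm1, the cargo receptor p62, rose with LPS at 4 h, from 335 to 886 FPKM (1.41 ± 0.12, adjusted p = 5.62e-07). It rose by 1.58 ± 0.12 between PBM and LPS+PBM at 4 h (adjusted p = 1.66e-07) and by 0.50 ± 0.12 at 24 h (adjusted p = 0.0215), and its LPS effect against Control was smaller at 24 h than at 4 h (-1.14 ± 0.17, adjusted p = 0.000135). None of the 14 genes of the MiT/TFE factors and mTORC1 sensing was called under LPS. Of the 8 cathepsin inhibitors 5 could be tested, and Cst3, cystatin C, fell between 4 h and 24 h in LPS+PBM (618 to 342 FPKM, -0.87 ± 0.20, adjusted p = 0.00929). Rheb, the GTPase that activates mTORC1, also fell over that time in LPS+PBM (138 to 58.1 FPKM, -1.25 ± 0.24, adjusted p = 0.00132) and in PBM (132 to 68.1 FPKM, -0.93 ± 0.24, adjusted p = 0.0440). The same time difference was called for Scpep1 in LPS+PBM (-0.61 ± 0.15, adjusted p = 0.0131) and in LPS (-0.69 ± 0.15, adjusted p = 0.00669). Sqstm1 also fell over that time, in LPS+PBM (-1.39 ± 0.12, adjusted p = 3.38e-09) and in LPS (-1.10 ± 0.12, adjusted p = 4.17e-07).

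Markers of cell types moved beside these changes at 24 h, and their part in the lysosomal results was not tested. The 18 microglial and macrophage markers summed to 475 to 536 FPKM in Control and to 536.05 to 699 FPKM with LPS. Their mean sum went from 510.4 to 590.4 FPKM, a smaller rise than that of Cd14 alone. Within that list Cd14 (6.66 to 132 FPKM, adjusted p = 0.000241) and Fcer1g (49.5 to 118 FPKM, adjusted p = 0.00888) rose, and Trem2 (31.4 to 1.66 FPKM, adjusted p = 0.000549) and C1qc (64.4 to 21.0 FPKM, adjusted p = 0.0104) fell, 4 called of 17 tested. P2ry12 was at 0 in 28 libraries. The 12 astrocyte markers summed to 388 to 524 FPKM in Control and to 222 to 253 FPKM with LPS, with Gfap (67.6 to 24.4 FPKM, adjusted p = 0.00899) and Glul (86.5 to 37.1 FPKM, adjusted p = 0.00517) lower. The mural marker Acta2 fell from 957 to 611 FPKM (adjusted p = 0.000851). The 8 fibroblast and meningeal markers summed to 2941 to 3352 FPKM in Control and 2856 to 3166 FPKM with LPS. Of these 8, 2 lay above 0 and 5 below, and Dcn was the one called, higher (145 to 422 FPKM), whereas Col1a2 averaged 882 and 765 FPKM and Igfbp2 1001 and 878 FPKM. Between PBM and LPS+PBM at 24 h the fibroblast sum was 3325 to 3719 FPKM without LPS and 2615 to 2926 FPKM with it, with no overlap, and 4 of 8 were called, Dcn higher and Col1a1, Col1a2 and Igfbp2 lower. The microglial sums there overlapped (447 to 544 and 355 to 674 FPKM), and 5 of 17 were called, Cd14 and Fcer1g higher and C1qb, C1qc and Tmem119 lower. The astrocyte sums overlapped too (274 to 403 and 161 to 294 FPKM), with Glul called lower, and Acta2 fell from 952 to 624 FPKM (adjusted p = 0.00139). At 4 h the microglial sum was 445 to 585 FPKM in Control and 279 to 388 FPKM with LPS, and the astrocyte sum was 283 to 477 and 212 to 298 FPKM. In light-treated cells at 4 h the sums overlapped without falling on average, with microglial means of 398 (PBM) and 428 FPKM (LPS+PBM). The astrocyte means were 315 and 386 FPKM. Fcgr3 was called lower against Control at 4 h (adjusted p = 0.0462), and Col1a1 lower against Control (0.00158) and PBM (7.35e-05).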

How the data were processed

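RNA of 32 libraries (8 groups of 4) was measured by oligo-dT primed, template-switched full-length cDNA sequencing, per the labels' protocols. The authors deposited FPKM values with 2 decimals. Per the submitters' processing notes the tools were HISAT2, RSEM, StringTie 1.3.1, Bowtie2 2.2.8 and fastp 0.18.0, with build mm10. The tool behind the FPKM values and the strand setting are not stated in the labels or notes. Without molecular barcodes PCR copies count as fragments. Fragment numbers were inferred from the FPKM steps of 4310 single-transcript genes, where 92.6% of 23452 values at or under 20 fragments lay within 0.05 of a whole number, and they cover counting error only. Since transcript lengths enter, fragments per gene are approximate. Coordinates came from GENCODE M21 (GRCm38, the assembly of mm10), which held 21806 of the IDs (99.6%).

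The test was limma 3.58.1 (R 4.3.3) on log2(FPKM + 1), with robust variances and an intensity trend. Genes entered if any fitted group averaged 1 FPKM or more. Comparisons within a time used its 16 libraries in 1 fit, and comparisons of times used all 32. Benjamini-Hochberg adjustment ran over all genes tested, and a gene was called where the adjusted p was under 0.05. Differences are understated for low genes by the added 1. The procedure was tested on simulated data. Replicate numbers recur in all groups, and residuals of same-numbered libraries correlated at -0.029 to 0.043 (48 pairs, 0 of them above 0.1), so the numbers were not taken to pair libraries. The members, lists and tests were chosen with earlier results of these data known. Genes given with values are those called in any comparison, the 5 highest, up to 3 with the smallest p where none was called, and up to 4 called genes of each further list. Other genes named beside these were chosen after their values were seen. Alternatives were a pseudocount of 0.1, no filter, quantile normalization, a replicate block, other libraries in the fit, library quality weights, voom on approximate fragments and leaving out each library. Python 3.11.15 and matplotlib 3.10.9 were used for summaries and figures. One gene of the further lists is not reported here.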

Additional observations from a re-analysis of the deposited data

Results flagged for a closer look

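Npc2 in the 24 h LPS group had 1 library apart from the other 3: LPS replicate 4 stood at 236.54 FPKM, the others at 217, 217 and 218 FPKM, a gap of 0.922 of the group's range. Over 64 gene and group pairs checked for 8 genes this was the 1 such case, and chance alone marks about 1 in 20 groups. Without that library the LPS difference of Npc2 at 24 h was 0.55 (limma adjusted p = 0.102). Ctsz had an LPS effect against Control that differed between the times, by 1.38 ± 0.31 on the log2(FPKM + 1) scale (limma adjusted p = 0.0281): 4 of 4 LPS libraries were above all Control libraries at 24 h, and the groups overlapped at 4 h.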

How the results depend on the processing

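Over the 16 calls of lysosomal genes, 264 values under other settings kept the direction in each case, and 184 of them kept the call. Counts of called genes (main value in brackets) changed by more than 1.5 times as follows. LPS against Control at 4 h (2) fell to 1 with quantile normalization. The LPS+PBM time difference (3) fell to 1, and the difference of the LPS effect between times (1) to 0, with other libraries in the fit. The LPS time difference (0) rose to 1 with library quality weights and to 3 by voom. With the replicate number as a block, LPS against Control at 24 h (6) fell to 3, as Ctsb, Psap and Npc2 lost their call (adjusted p = 0.0586, 0.0653 and 0.0760), and in LPS+PBM against PBM at 24 h Npc2 lost its own (0.0634). Leaving out 1 library gave 1 to 2 calls for LPS against Control at 4 h, 3 to 4 at 24 h, 2 to 4 for LPS+PBM against PBM at 24 h, 1 to 3 for the LPS+PBM time difference, 0 to 1 for the Control time difference, 0 to 1 for the LPS effect between times and 0 to 0 for the other 9 comparisons. Chosen after seeing the data, leaving out the 6 libraries that stand last in the deposited table, out of order with the rest (fewer samples), gave 0 for LPS against Control at 4 h, 2 at 24 h (Ctsd and Ctsz), 1 for LPS+PBM against PBM at 24 h (Ctsd), 1 for the LPS+PBM time difference (Npc2) and 0 for the LPS effect between times. Ctsc at 24 h against Control lost its call only there (1.81, adjusted p = 0.0617), as did Psap at 4 h (-0.41, adjusted p = 0.0509). The cause was not tested. Quantile normalization moved the median over all genes for LPS+PBM against PBM at 4 h from -0.16 to -0.05, where no lysosomal gene was called either way. Depth limits the low genes: Tfeb and Ctso were at 0 in some libraries, and Manba, Naglu, Mcoln1 and Gla rest on few fragments.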
